A study of Homo sapiens with 2 samples.

Results

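The 9 genes described here carry inherited variants that raise the risk of breast cancer: BRCA1, BRCA2, PALB2, ATM, CHEK2, BARD1, RAD51C, RAD51D and STK11. They were chosen by symbol in GENCODE release 44, and all 9 had a row among the 58735 Ensembl genes of each of 2 count tables. The RNA came from MCF10a-Snail-ER cells, a derivative of MCF10a, a non-tumorigenic human mammary epithelial line, that stably expresses the repressor Snail fused to the estrogen receptor. The cells were grown with horse serum, EGF, hydrocortisone, cholera toxin and insulin. Tamoxifen at 100 nM was added for 1 day to activate the fusion and set off an epithelial-to-mesenchymal transition. Polyadenylated RNA was read on a MinION by Nanopore direct RNA sequencing and, after a TruSeq stranded mRNA preparation, on Illumina. Each platform had 1 library, both carried the fusion and the tamoxifen, and no untreated library was analysed here. No value therefore has a replicate, every interval and test covers counting error only, and a tested difference lies between these 2 libraries.

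The products of 8 of these genes act on broken DNA. ATM is a kinase that signals double-strand breaks, and CHEK2 is a kinase it activates. BRCA1 and BARD1 form a heterodimer with ubiquitin ligase activity that promotes resection of the break, PALB2 links BRCA1 to BRCA2, and BRCA2 acts in the strand exchange that follows. RAD51C and RAD51D are related proteins that sit in one complex with RAD51B and XRCC2 and assist that step. STK11 encodes LKB1, a kinase that activates the energy sensor AMPK, and its inherited variants cause Peutz-Jeghers syndrome. Much of homologous recombination takes place in S and G2 phase, when a sister chromatid is present as template.

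Depth was 403235 counts by Nanopore and 191741714 by Illumina, a 476-fold difference, so that 1 Nanopore count stood for 2.48 counts per 1000000 (CPM). With 3 counts as the floor, shares under 7.44 CPM by Nanopore and 0.0156 CPM by Illumina were below what each depth shows. All 7 basal mammary markers were detected on both platforms, with summed levels of 3554 and 3298 CPM (Nanopore first), and all 8 proliferation markers were detected on both. Markers of other cells were not all at 0. By Illumina the hormone-responsive list had 4 of 5 genes and 161 CPM, most of it ESR1 with 27469 counts, a gene whose sequence the fusion also carries, while GATA3 had 2479 counts, FOXA1 952, TFF1 2 and PGR none. The immune list had 3 of 4 genes and 45.2 CPM, nearly all of it CD68, with 2 counts for PTPRC and none for CD3E. All 5 fibroblast genes were detected, at 33.1 CPM in sum, most of it DCN, with 946 counts for COL1A1, and all 4 endothelial genes, at 6.61 CPM in sum, with 973 counts for PECAM1 and 278 for KDR. The part of other cells in the values of the 9 genes was not tested. CDKN2A and CDKN2B, which lie in a segment that MCF10a cells have lost, had no count on either platform, and their neighbour MTAP had 14 by Illumina.

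Of the 9 genes, 7 have an annotated start of another gene on the opposite strand within 1000 bases of the start of their canonical transcript, an arrangement called head to head. The same was true of 34.3% of the 10498 protein-coding genes tested. In 4 of the 7 pairs a promoter window of 300 bases holds both starts. These 4 windows are shown because the counts of the gene on each side, given further on, were read from opposite sides of the same stretch. Each runs 5' to 3' along the strand of the susceptibility gene, from 250 bases before its start site to 50 bases after it (RefSeq, GRCh38.p14). Capitals mark matches on either strand to a CCAAT box (CCAAT), a GC box (GGGCGG), a cyclic AMP response element (TGACGTCA), an ETS motif (CCGGAAGT), the 10-base NRF1 consensus, 2 E2F motifs (TTTCGCGC and TTTGGCGC) or a TATA box (TATAAA).
BRCA1 with NBR2, chr17:43125315-43125614, minus strand: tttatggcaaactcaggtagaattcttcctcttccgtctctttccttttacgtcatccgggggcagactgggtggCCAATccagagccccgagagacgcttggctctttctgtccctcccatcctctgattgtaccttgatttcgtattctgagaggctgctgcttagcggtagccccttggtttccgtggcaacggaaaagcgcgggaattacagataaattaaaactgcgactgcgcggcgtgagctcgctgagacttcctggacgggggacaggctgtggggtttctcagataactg
BRCA2 with ZAR1L, chr13:32315258-32315557, plus strand: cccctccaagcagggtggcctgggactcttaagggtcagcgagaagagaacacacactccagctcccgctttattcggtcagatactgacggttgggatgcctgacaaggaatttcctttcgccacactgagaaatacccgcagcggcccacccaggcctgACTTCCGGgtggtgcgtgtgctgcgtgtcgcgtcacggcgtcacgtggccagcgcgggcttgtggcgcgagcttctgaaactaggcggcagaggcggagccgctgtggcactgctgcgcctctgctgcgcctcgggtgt
PALB2 with DCTN5, chr16:23641261-23641560, minus strand: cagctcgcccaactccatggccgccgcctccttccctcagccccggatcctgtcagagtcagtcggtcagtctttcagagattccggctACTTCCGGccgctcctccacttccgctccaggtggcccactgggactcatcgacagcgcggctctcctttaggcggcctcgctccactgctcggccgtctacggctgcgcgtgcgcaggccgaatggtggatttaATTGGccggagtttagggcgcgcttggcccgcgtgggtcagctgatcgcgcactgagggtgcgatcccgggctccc
CHEK2 with HSCB, chr22:28741771-28742070, minus strand: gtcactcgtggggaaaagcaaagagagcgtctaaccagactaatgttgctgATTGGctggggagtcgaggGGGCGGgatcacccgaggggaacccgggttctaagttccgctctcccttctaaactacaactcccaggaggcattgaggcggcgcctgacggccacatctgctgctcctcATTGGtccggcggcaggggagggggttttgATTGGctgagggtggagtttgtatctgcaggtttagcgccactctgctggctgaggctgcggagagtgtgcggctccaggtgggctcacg

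The partner's start lies 187 bases before that of BRCA1, 145 before BRCA2, 156 before PALB2 and 219 before CHEK2. All 9 genes had a window in the RefSeq table. None of the 9 windows held TATAAA, which was in 12.0% of the 27305 promoters of the table, and none held the NRF1 or either E2F motif, which were in 1.36%, 0.546% and 0.659% of them. CCAAT was in 5 of the 9 windows, against 35.7% of all promoters, and the windows of CHEK2 and STK11 each held it 3 times. GGGCGG was in 4 of 9 windows, against 44.6% of all promoters, and in BARD1 it occurred 5 times. CCGGAAGT was in the windows of BRCA2 and PALB2 and in 4.44% of all promoters, and TGACGTCA was in that of RAD51C and in 1.98% of all promoters. These are matches of letters only. The windows were rich in CG dinucleotides, from 16 in CHEK2 to 44 in STK11, against a median of 14 over all promoters.

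All 9 genes had counts on both platforms, but few by Nanopore: 6 reached the floor of 3 counts, and ATM and BARD1 with 2 and PALB2 with 1 lay under it. Together they had 51 Nanopore counts, where their share of the Illumina library would have given 108. Of the 9, 8 had a lower CPM by Nanopore, as had 7843 of the 12414 tested genes and 7487 of the 10498 protein-coding ones. Among the 9, 4 were called different between the libraries: BRCA1, PALB2, ATM and CHEK2, each higher by Illumina (exact conditional binomial test, Benjamini-Hochberg adjusted p under 0.05). Of all 12414 genes whose mean reached 5 CPM, 47.4% were called, 27.2% as higher by Illumina and 20.2% as higher by Nanopore. Pooled over both directions the 4 of 9 are near the background, but all 4 were higher by Illumina. Among protein-coding genes the share called higher by Illumina rose with transcript length, as given further on. The 27.2% is therefore not a background of like length for the 9 genes. Among the 10498 tested protein-coding genes 4480 were called, 3246 higher by Illumina and 1234 higher by Nanopore. The median log2 ratio of Nanopore to Illumina, computed as log2(CPM + 1), was -1.44 for the 9 genes. It was -0.42 for all tested genes and -0.58 for the protein-coding ones. These directions are on the CPM scale, where Illumina counts are not divided by transcript length, and their cause was not tested. When Illumina counts were divided by the length of the canonical transcript and scaled to transcripts per 1000000 (TPM), the median of the 9 became 0.34, that of all tested genes 0.48, and the only called gene was STK11, higher by Nanopore, a call made for 31.4% of all genes on that scale. With the mean length of the annotated transcripts in place of the canonical one, the median of the 9 was -0.44. The median of all tested genes on that scale is not given here. The only called gene was again STK11, higher by Nanopore (exact binomial adjusted p = 0.00816), where 39.5% of all genes were called in either direction. For the level of a gene within either library of bulk RNA, fewer cells that express it and less RNA per cell cannot be told apart.

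**Figure D1:**
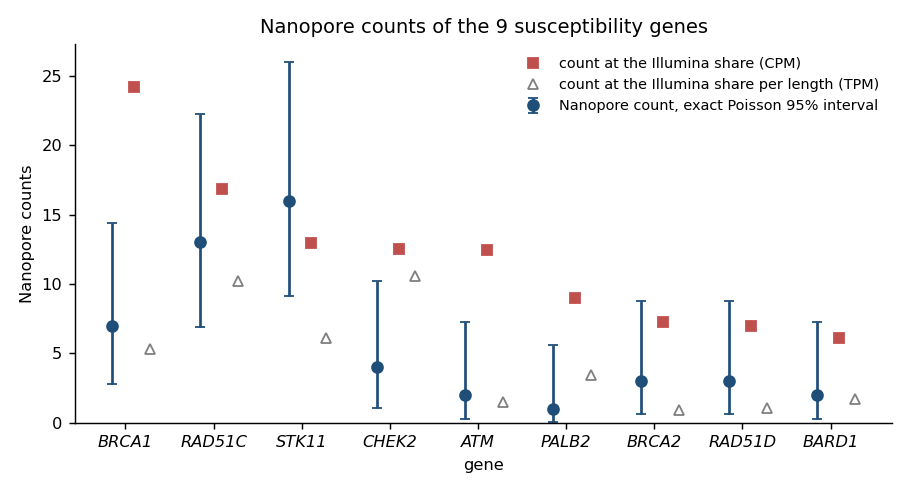
Nanopore counts (y axis) of the 9 genes (x axis), ordered by the count that the Illumina share would give. Circles with bars are the observed counts with exact Poisson 95% intervals, squares the counts at the Illumina CPM and triangles those at the Illumina TPM; for BRCA1 the observed 7 lies below 24.2 and near 5.29.

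BRCA1 (ENSG00000012048, chr17:43044295-43170245, hg38, minus strand) had 7 Nanopore and 11498 Illumina counts. Its Nanopore share was 17.4 CPM (exact binomial 95% interval 6.98 to 35.8) and its Illumina share 60.0 CPM (58.9 to 61.1). The intervals did not overlap, and the Illumina share was 3.45-fold higher (1.68 to 8.59; exact binomial adjusted p = 0.000325). Per canonical length the Illumina level was 13.1 TPM, close to the Nanopore value, and the difference was not called (adjusted p = 0.733, exact binomial test). The lncRNA gene ENSG00000267002, on the same strand, shares 21878 bases of gene body with BRCA1. It had 1136 Illumina counts and no Nanopore count, and the part of shared reads in the BRCA1 values was not tested. BARD1 (ENSG00000138376, chr2:214725646-214809683, minus strand), the partner without which BRCA1 is unstable, had 2 Nanopore and 2911 Illumina counts. Its shares were 4.96 CPM (0.601 to 17.9) and 15.2 CPM (14.6 to 15.7), intervals that overlapped, and no difference was detectable at this depth (exact binomial adjusted p = 0.191).

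PALB2 (ENSG00000083093, chr16:23603160-23641321, minus strand) had the fewest Nanopore counts of the 9, a single count against 4265 by Illumina. The Illumina share of 22.2 CPM (21.6 to 22.9) lay above the Nanopore interval of 0.0628 to 13.8 CPM. The ratio was 8.97-fold with a counting interval of 1.61 to 354 (exact binomial adjusted p = 0.00713), so its size is poorly bounded. PALB2 was lower by Nanopore per length too, at 1 count against 3.47 at its Illumina TPM, but that difference was not called (exact binomial adjusted p = 0.436). BRCA2 (ENSG00000139618, chr13:32315086-32400268, plus strand), whose canonical transcript of 11954 bases has an exon of 4932 bases, had 3 Nanopore and 3456 Illumina counts. Its shares were 7.44 CPM (1.53 to 21.7) and 18.0 CPM (17.4 to 18.6), and they were not distinguished (exact binomial adjusted p = 0.223). At the Illumina TPM of BRCA2 0.942 Nanopore counts would have been read, fewer than the 3 observed, so the direction of its difference changed with the division by length.

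RAD51C and RAD51D differed in depth of reading. RAD51C (ENSG00000108384, chr17:58692573-58735611, plus strand) had 13 Nanopore and 8023 Illumina counts, or 32.2 CPM (17.2 to 55.1) and 41.8 CPM (40.9 to 42.8). The intervals overlapped, with an Illumina to Nanopore ratio of 1.30 (0.759 to 2.44; exact binomial adjusted p = 0.545). Per canonical length the Illumina level would have given 10.2 Nanopore counts, and no difference was called (exact binomial adjusted p = 0.632). Per union of exons RAD51C was called higher by Nanopore, at a log2 ratio of 2.07 (exact binomial adjusted p = 6.86e-05), a call made for 31.2% of all genes on that scale. RAD51D (ENSG00000185379, chr17:35092221-35121522, minus strand) had 3 Nanopore and 3306 Illumina counts, or 7.44 CPM (1.53 to 21.7) and 17.2 CPM (16.7 to 17.8), again with overlap (exact binomial adjusted p = 0.265). Its canonical transcript of 9966 bases is mostly 1 exon of 8816 bases. The protein-coding gene ENSG00000267618, on the same strand, spans nearly all of RAD51D and also had 3 Nanopore counts, with 686 Illumina counts. Of the 50-base words of the canonical RAD51D transcript 7.68% also occur in other genes, that gene foremost, and how a read on both was counted is not given in the sources used here. The RAD51D values are uncertain for that reason.

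Of the kinases, ATM (ENSG00000149311, chr11:108223044-108369102, plus strand) had 2 Nanopore and 5925 Illumina counts. The Illumina share of 30.9 CPM (30.1 to 31.7) was above the Nanopore interval of 0.601 to 17.9 CPM, a 6.23-fold difference (1.72 to 51.5; exact binomial adjusted p = 0.00229). ATM has 63 exons and the longest canonical transcript of the 9, at 12915 bases. At its Illumina TPM 1.50 Nanopore counts would have been read, so per length its direction changed and no difference was called (exact binomial adjusted p = 0.994). CHEK2 (ENSG00000183765, chr22:28687743-28742422, minus strand) has the shortest canonical transcript, at 1844 bases, and had 4 Nanopore and 5966 Illumina counts. Its 31.1 CPM by Illumina (30.3 to 31.9) lay above the Nanopore interval of 2.70 to 25.4 CPM, a 3.14-fold difference (1.22 to 11.5; exact binomial adjusted p = 0.0245). CHEK2 kept this direction per length, with 4 counts against 10.5 at its Illumina TPM, but not the call (exact binomial adjusted p = 0.0908). The call was also lost with totals over nuclear protein-coding genes (exact binomial adjusted p = 0.0880). CHEK2 has pseudogene copies, and 9.19% of its 50-base words occur in other genes, the highest share among the 9. The 7 genes named CHEK2P in the annotation that had a row held 2 Illumina counts and no Nanopore count in all, and the part of shared sequence in the CHEK2 values was not tested.

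STK11 (ENSG00000118046, chr19:1177558-1228431, plus strand) had the most Nanopore counts of the 9, 16, against 6165 Illumina counts. The Nanopore share was 39.7 CPM (22.7 to 64.4) and the Illumina share 32.2 CPM (31.4 to 33.0), with overlapping intervals (exact binomial adjusted p = 0.594). It was the 1 gene of the 9 whose CPM was higher by Nanopore, and at its Illumina TPM only 6.10 counts would have been read, a difference that was called (exact binomial adjusted p = 0.00405). Its canonical transcript has 67.0% G and C, against 36.2% in BRCA2 and 47.1% in RAD51D, the lowest and the second highest of the set. The last 145 bases of the STK11 gene body overlap CBARP, a gene on the other strand that had 6 Nanopore counts where its Illumina share would give 0.160 (exact binomial adjusted p = 3.13e-07). The part of reads shared between STK11 and CBARP in either count was not tested.

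**Figure D2:**
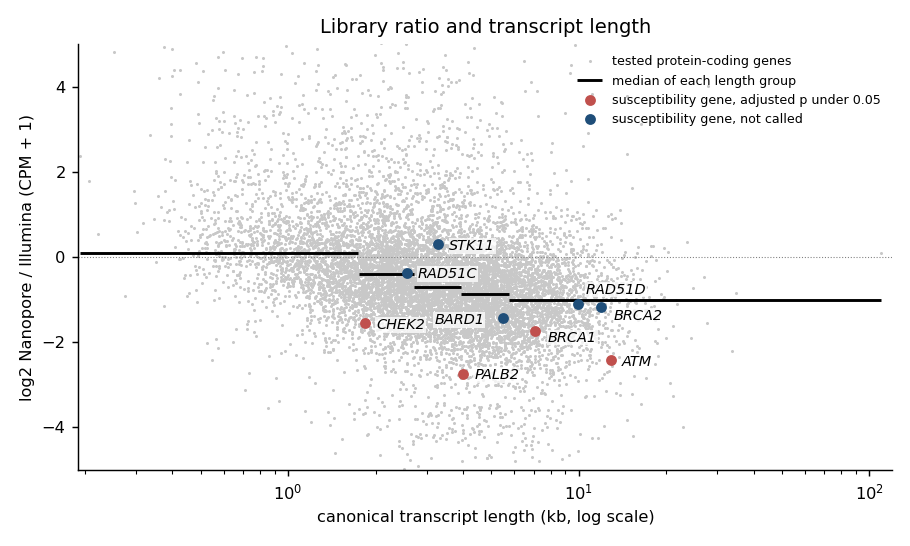
Log2 ratio of Nanopore to Illumina on the CPM + 1 scale (y axis) against the length of the canonical transcript in kb (x axis, log scale). Grey points are the tested protein-coding genes (94 lie outside the plotted range), black lines the medians of 5 length groups, and coloured points the 9 genes, of which CHEK2, PALB2 and ATM lie well below the line of their group and STK11 above.

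The ratio moved with transcript length over all genes. When the tested protein-coding genes were split into 5 even groups by canonical length, the median log2 ratio fell from 0.09 in the shortest group (192 to 1747 bases) to -1.01 in the longest (5753 bases and more). None of the 9 genes fell in the shortest group, and BRCA1, BRCA2, ATM and RAD51D fell in the longest. Within that group BRCA2, at -1.17, and RAD51D, at -1.11, were close to the median, while BRCA1 was at -1.73 and ATM at -2.42, with 22.6% and 8.67% of the group below them. PALB2 was at -2.74, and 4.53% of its group of 3946 to 5752 bases had a lower ratio. CHEK2 was at -1.56 in a group of 1748 to 2706 bases with a median of -0.40, and 11.0% of that group lay below it. RAD51C was in the same group, at -0.37. STK11, at 0.30, was above 83.4% of its group of 2707 to 3945 bases. These places in the groups are descriptions without a test. The share of genes called higher by Illumina in the main test also rose with length. It was 26.3% in the group of CHEK2 and RAD51C and 33.1% in that of STK11. It was 38.3% in the group of PALB2 and BARD1 and 41.9% in the longest group. Whether the 4 of 9 called higher by Illumina differ from these shares was not tested.

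Levels of different genes were compared per canonical length, by Illumina TPM. The highest were CHEK2 at 26.2 TPM (exact Poisson 95% interval of the count, scaled: 25.5 to 26.8) and RAD51C at 25.3 TPM (24.8 to 25.9), whose intervals overlapped. STK11 followed at 15.1 TPM, BRCA1 at 13.1, PALB2 at 8.60, BARD1 at 4.30 and ATM at 3.71, and RAD51D at 2.68 and BRCA2 at 2.34 were lowest. Apart from CHEK2 and RAD51C, neighbours in this order had intervals that did not overlap. Among the 15524 protein-coding genes with an Illumina count, CHEK2 stood at the 76.3 percentile by TPM, BRCA1 at the 63.1 percentile and BRCA2 at the 33.7 percentile. By Nanopore, where each read stands for 1 RNA strand and no division by length is needed, the order was STK11 with 16 counts, RAD51C with 13, BRCA1 with 7 and CHEK2 with 4. BRCA2 and RAD51D had 3 each, ATM and BARD1 2 each and PALB2 1. Only the ends of that order were separated: the Poisson interval of STK11 (9.15 to 26.0) lay above those of PALB2, ATM, BARD1, BRCA2 and RAD51D, and that of RAD51C (6.92 to 22.2) above that of PALB2 (0.0253 to 5.57).

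**Figure D3:**
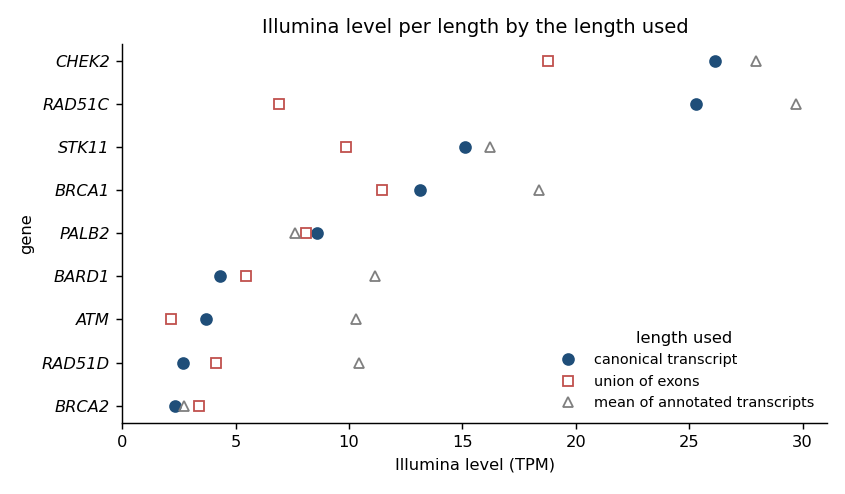
Illumina level in TPM (x axis) of the 9 genes (y axis) when counts were divided by the canonical transcript (circles), the union of all annotated exons (squares) or the mean of all annotated transcripts (triangles). RAD51C ranged from 6.91 to 29.7 TPM with the length used, while PALB2 stayed between 7.61 and 8.60.

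The length used mattered for this order. ATM was at 3.71 TPM by its canonical transcript, 2.14 by the union of exons and 10.3 by the mean of its 53 annotated transcripts, and RAD51D was at 2.68, 4.14 and 10.4. By all of these lengths CHEK2 was in the first or second place and BRCA2 in the last or last but one. By union length RAD51C fell to the fifth place, at 6.91 TPM.

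Illumina levels of partners in a complex or pathway often differed, and some orders turned with the length used. BRCA1 was 3.05 times as high as BARD1 per canonical length, 2.11 times by union and 1.65 times by mean transcript length. PALB2 was 3.68 times as high as BRCA2 per canonical length. SEM1, the small acidic protein that binds BRCA2, was at 832 TPM, the highest of the recombination list, but its ratio to BRCA2 fell from 356 by canonical length to 18.4 by union length. Among its relatives, RAD51C was above RAD51B (8.04 TPM), RAD51D and XRCC2 (4.71 TPM) by each of the lengths. The order of RAD51C with XRCC3 (12.2 TPM) turned with union length, where the ratio was 0.946. ATM was below ATR, the kinase that responds to stalled replication forks, with a ratio of 0.466 that stayed under 1 by union (0.513) and mean length (0.793). CHEK2 and CHEK1, the kinase that ATR activates, had a ratio of 1.04 that became 0.577 by union length and 0.585 by mean length. STK11 was at 15.1 TPM beside 14.4 for STRADA and 11.9 for STRADB, the pseudokinases that switch it on, and 46.3 for CAB39, the scaffold of the trimer. The order of STK11 with STRADA and with STRADB turned with the length used, and that with CAB39 did not. By Nanopore count, PALB2 with BRCA2 (1 and 3) and CHEK2 with CHEK1 (4 and 14) stood in the opposite order to canonical TPM. Poisson intervals overlapped within both of these pairs, and the other pairs named kept their order.

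**Figure D4:**
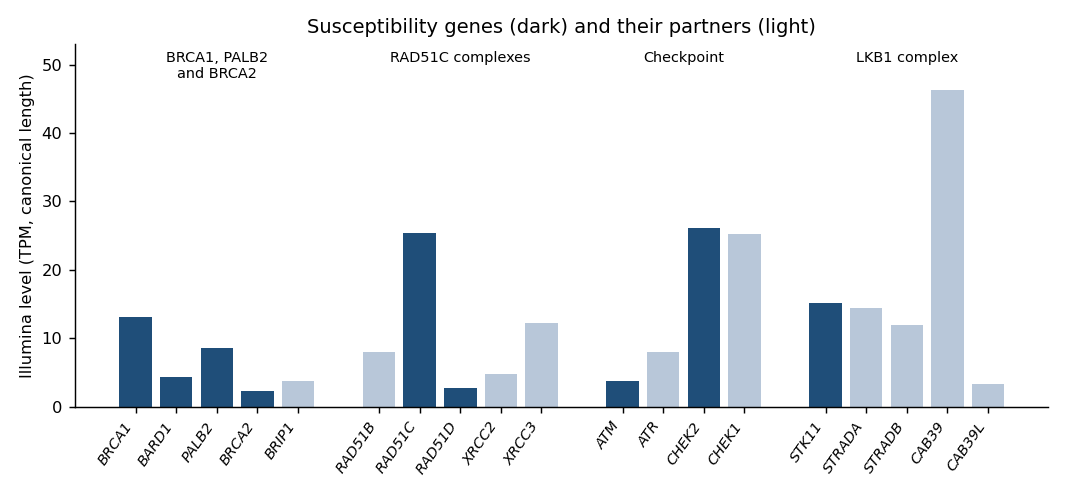
Illumina level per canonical transcript length in TPM (y axis, from 0) of susceptibility genes (dark bars) and partners of their complexes or pathway (light bars), 1 library. RAD51C at 25.3 TPM is the highest bar of the second group and BRCA2 at 2.34 TPM the lowest bar of the first group.

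The genes that start head to head with the 9 ranged from nearly silent to higher than the susceptibility gene. DCTN5, a dynactin subunit, had 14 Nanopore and 16404 Illumina counts and was above PALB2 by each length, with a PALB2 to DCTN5 ratio of 0.711 in canonical TPM. HSCB, an iron-sulfur cluster co-chaperone, had 3 and 2434 counts, and the CHEK2 to HSCB ratio was 1.47, which turned to 0.793 by union length. NPAT, a coactivator of histone gene transcription, starts 429 bases from ATM and had 2 and 2243 counts, and the ATM to NPAT ratio of 1.25 turned to 0.508 by union length. NBR2, a lncRNA gene, had 1 and 737 counts, and BRCA1 was 4.17 times as high. ZAR1L, beside BRCA2, had 5 Illumina counts and no Nanopore count, and BRCA2 was 91.6 times as high per length. TEX14, which starts 557 bases from RAD51C and is known from the testis, had 23 Illumina counts, and IGBP1C, at the same distance, had none. SNHG31, 526 bases from BARD1, had 3 Nanopore counts but 19 Illumina counts, which would give 0.0400 Nanopore counts, and it did not reach 5 CPM for the test.

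**Figure D5:**
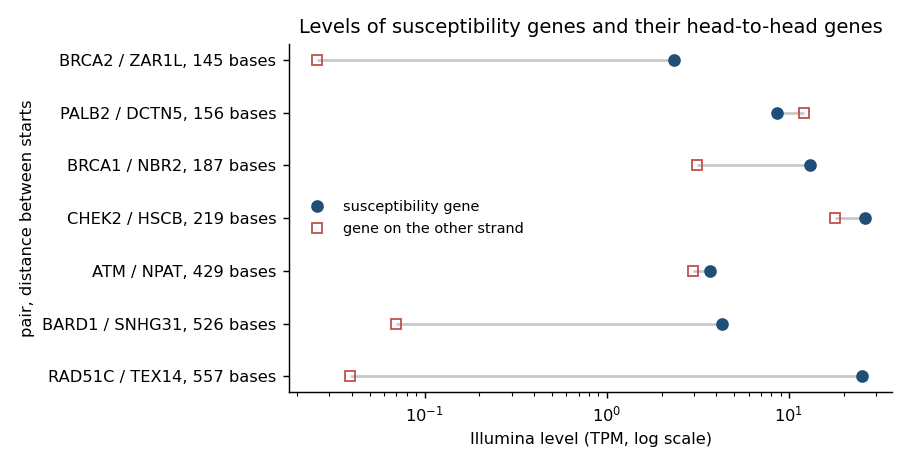
Illumina level in TPM by canonical length (x axis, log scale) of each susceptibility gene (filled circles) and the gene that starts on the other strand (open squares), with the pair and the distance between starts on the y axis. PALB2 is the only susceptibility gene below its partner, at 8.60 against 12.1 TPM; the order of CHEK2 with HSCB and of ATM with NPAT turns with union length.

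Other genes of these pathways were taken from 5 lists with 106 genes in all, none of them among the 9, and 4 genes stood in 2 of the lists. Of these, 99 reached 5 CPM, and 7 of the 106 had no Nanopore count. Of the 99, 49 were called, 44 higher by Illumina and 5 higher by Nanopore, against 47.4%, 27.2% and 20.2% of all tested genes, and their median log2 ratio was -0.90 against -0.42. Pooled over both directions, the share called was near the background. The share higher by Illumina was above that of all tested genes and the share higher by Nanopore below it. All genes of the lists are protein-coding, and the background of all tested genes also holds non-coding ones. Of the 10498 tested protein-coding genes, 3246 were called higher by Illumina and 1234 higher by Nanopore. Genes of like transcript length were not compared. With canonical TPM 29 of the 99 were called, against 41.3% of all genes, and 21 of them were higher by Nanopore, against 31.4%. Among 32 genes of homologous recombination 12 were called higher by Illumina and 1 higher by Nanopore, with a median of -0.59, beside the same 27.2% and 20.2% of all genes. The highest by TPM beside SEM1 was MORF4L1, a chromatin protein that binds PALB2, at 193 TPM, and the lowest were RAD52 at 4.44 and the helicase BRIP1 at 3.79. Among 19 Fanconi anemia genes 8 were called higher by Illumina and 1 higher by Nanopore. UBE2T, the E2 enzyme of that pathway, was highest at 183 TPM, followed by CENPX at 85.8, and ERCC4 and SLX4 were lowest at 2.37 and 2.35. FANCG, SLX4 and the nuclease FAN1 were also past 4-fold, a call that 7.31% of all tested genes had. SLX4 and FAN1 had no Nanopore count, and FAN1 has a copy on an alternate contig.

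In the damage signalling list, 15 of 25 genes were called higher by Illumina and 2 higher by Nanopore. For this and the next lists, as for the Fanconi genes, the background is again 27.2% and 20.2% of all tested genes. Among the 10498 protein-coding ones it is 3246 and 1234 genes. The phosphatase CDC25B, at 109 TPM, and the histone H2AX, at 52.8, were highest, and CLSPN and PPM1D, at 6.27 and 3.53, lowest. ATR, with 3 counts where 16.9 would be given by its Illumina share, CDC25A, CLSPN and MDC1 were past 4-fold on the Illumina side. MDC1, the mediator that binds phosphorylated H2AX, had 1 Nanopore count where 25.2 would be given, and 6 alternate contigs hold a copy of it. RAD17, a clamp loader subunit with a copy on 1 alternate contig, had 11 counts where 8.30 would be given. None of the 9 susceptibility genes had such a copy. The part of these copies in the counts of FAN1, MDC1 or RAD17 was not tested. RAD9A was the only gene past 4-fold on the Nanopore side, with 68 counts where 5.58 would be given. That call was made for 12.9% of all tested genes, but for only 498 of the 10498 protein-coding ones. RAD9A overlaps another gene, as do all but 20 of the 99 tested genes of the lists. Of 24 genes of the LKB1 list 17 were tested, and 6 were called higher by Illumina and 1 higher by Nanopore. PRKAG1, an AMPK subunit, was highest at 72.0 TPM, PRKAA2 and BRSK2 were at 0.318 and 0.0536 TPM with no Nanopore count, and MARK2 was past 4-fold on the Illumina side. Of 10 other breast cancer risk genes 4 were called, each higher by Illumina, among them the mismatch repair gene MSH6 (62.7 TPM), the highest of that list. BRIP1 and FANCM were the lowest of it, at 3.79 and 2.48 TPM.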

How the data were processed

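The authors deposited raw whole-number gene counts for 1 Nanopore and 1 Illumina library. Per the submitters' processing notes, the build was hg38 and the tools were minimap2 2.11-r797, HISAT2 2.1.0 and featureCounts, with no roles given. Counting options, strand setting and annotation release are not given in the sources used here, and neither is the suffix of the Nanopore column, so whether the long reads were corrected with short reads is unknown. If they were, the libraries are not independent.

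Identifiers were matched to GENCODE release 44, which held 58207 of 58735. Lengths were those of the Ensembl canonical transcript, with the union of exons or the mean transcript as alternatives. CPM used library totals, and ratios a pseudocount of 1 CPM. Genes whose mean reached 5 CPM entered a two-sided exact conditional binomial test with Benjamini-Hochberg adjustment over all of them (scipy 1.17.1), tested on simulated data first. With 1 library per group no dispersion could be estimated, so edgeR 4.0.16 served only for TMM scaling and for an exact test with an assumed coefficient of variation of 0.2. Intervals are exact 95% binomial for CPM and Poisson for counts, and amplified reads are not separate molecules, so both cover counting error only. Copies on alternate contigs needed 80% coverage and at most 5% divergence (minimap2 2.31).

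The genes and lists were chosen with earlier results of these data known. All 9 genes and their head-to-head neighbours were named, and in each list the 2 highest, the 2 lowest and those past both thresholds. Genes whose bodies overlap one of the 9 were named only in part. A few genes of the lists are not reported here. Partners in complexes, RAD17 and the CHEK2 copies were named after their values were seen.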

Additional observations from a re-analysis of the deposited data

How the results depend on the processing

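The number of the 9 genes called different was 4. It became 2 with Illumina counts per union exonic length, 1 by canonical and 1 by mean transcript length (the last chosen after seeing the data), and 0 among the 2 genes without overlap. The called genes under division were higher by Nanopore. Of all tested genes 47.4% were called in the main test. The share was 41.9% by union, 41.3% by canonical and 39.5% by mean transcript length, and 39.8% among genes without overlap. The median log2 ratio of -1.44 became -1.59 and -1.02 with pseudocounts of 0.1 and 5 CPM, -1.33 with median ratio scaling, which raises every unshrunk ratio by 0.13, and -1.25 with totals over nuclear protein-coding genes. It was -0.90 over genes without overlap, 0.72 by union, 0.34 by canonical and -0.44 by mean transcript length. Medians of all tested genes by union and mean transcript length are not given here. By union length the ratios of BRCA1 (0.56), BRCA2 (0.95), ATM (0.93), RAD51C (2.07) and RAD51D (0.72) turned positive. By canonical length those of BRCA1 (0.38), BRCA2 (1.34), ATM (0.34), BARD1 (0.17), RAD51C (0.34) and RAD51D (1.20) did, and by mean length those of BRCA2 (1.19) and RAD51C (0.11). CHEK2 also lost its call with an assumed coefficient of variation of 0.2 (exact test adjusted p = 0.0962). The pathway genes called fell from 49 of 99 to 32, 29 and 23 of 99 under the same divisions by length. Without overlap 6 of the 20 genes left to test were called. With the assumed variation 22 of 99 were called, against 28.9% of all tested genes. The shares of all tested genes at the other settings are those given above. At a minimum of 3 Nanopore counts 6 genes, and at 10 counts 2, were detected in place of 9. In the order by level 3 genes kept their place by union and 2 by mean transcript length. Other filters on mean CPM and TMM scaling changed no direction or call of the 9 genes. With starts within 500 bases 5 of the 9, in place of 7, had a head-to-head gene. At the Nanopore depth no gene of the 9 has more than 16 counts, which limits every ratio. No paired analysis was possible because each platform has 1 library. The labels give no replicate numbers, but the count columns of both files carry a 3 in their headers (rep3 by Illumina), so the libraries may come from 1 culture.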
